A study of Mus musculus with 4 samples.

Results

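The RNA of rodent L1 subfamilies was examined in wild-type mouse embryonic fibroblasts (MEF), connective tissue cells cultured from embryos, with and without genistein. Genistein is a soy isoflavone that is known as an inhibitor of tyrosine kinases and of DNA topoisomerase. The series asked how repeat transcription in mouse heterochromatin responds to this compound. One group of 2 total RNA libraries came from untreated cells, whose medium held the vehicle DMSO in the study's methods, and the other group of 2 libraries came from cells exposed to 50 µM genistein for 24 h. Both groups carried the same genotype, and the labels do not say whether replicates were separate cultures, so the p-values below measure only the spread between these samples. The members were the repeat rows of class LINE and family L1 whose names start with L1Md, L1_Mu, L1_Mm, L1_Rod, L1VL or Lx. There were 109 such rows among 1445 repeat rows and 49382 rows of genes and repeats in all. A row sums the reads of every genomic copy of a subfamily, so it has no single position.

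LINE-1 (L1) elements copy themselves through an RNA intermediate. A complete mouse element has a promoter in its 5′ untranslated region, built of repeated units called monomers in the younger families, followed by an open reading frame for an RNA-binding protein (ORF1) and a longer frame for the endonuclease and reverse transcriptase (ORF2). Most genomic copies lack the 5′ end, so reads from the rest of an element can come from many truncated copies that lie inside other transcripts, whereas reads from the 5′ end come from copies that still hold it. The A, Tf and Gf families are the L1 families known to be mobile in the laboratory mouse, the F family is older, and the Lx families date from early murine evolution. In the deposited table the names ending in 5end_noORF1 and 5end_ORF1only hold reads of the 5′ end, without ORF1 and of ORF1 alone respectively. There were 31 rows of the first kind, 28 of the second and 50 other rows, called body rows here. Lengths of the rows were not used, so counts are compared between libraries and not between rows.

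The 4 libraries held 28591958 to 31464284 counts. The share of rodent L1 rows was 0.413% and 0.445% of all counts without genistein and 0.761% and 0.755% with it. Of the counts on repeats alone they made up 3.45% and 3.56% in untreated cells and 5.20% and 5.57% after genistein. The share of counts on all repeats was 12.0% and 12.5% against 14.6% and 13.6%. These shares weigh each row by its counts, so they are not comparable with the medians over rows below. With repeats fitted alone, the median log2 fold change of the tested members was 0.12. The label of the cells was checked with fibroblast genes. Of 9 such genes 8 were well counted, among them Col1a1, Col1a2, Fn1 and Pdgfra. The summed normalised count of the list was 422900 to 435300 in untreated and 397600 to 407300 in genistein libraries. Of the 8 genes 6 were lower and 2 higher, with log2 fold changes from -0.73 in Pdgfrb to 0.81 in Fbn1. Thy1, a surface marker of many fibroblasts, had no count in any library. Genes of other cell types were low and also moved in both directions. The pluripotent and germ cell sum was 114 to 134 in untreated and 93.8 to 102 in genistein libraries, with Dppa3 and Dazl at 0. In that list Ddx4 fell (log2 fold change -0.97). Nanog (0.55) and Pou5f1 (0.68) did not pass an adjusted p under 0.05 by edgeR. The epithelial sum was 452 to 462 against 131 to 137 with Epcam at 0, the blood sum was 65.6 to 84.9 against 211 to 214 with Adgre1 at 0 and Ptprc at 0 or 1 count, and the endothelial sum was 19.0 to 26.5 against 76.0 to 84.0 with Cdh5 at 0 or 1 count. The part of these cell types in the L1 values was not tested, and in bulk RNA fewer cells of a type and less RNA per cell cannot be told apart.

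Nearly every rodent L1 row that could be tested was higher after genistein, by a little under 2-fold. Of the 109 rows 96 had enough counts for edgeR's quasi-likelihood test, and 93 of these rose at an adjusted p under 0.05, 0 fell and 3 did not pass. This count has to be read against the repeats as a whole, of which 76.3% of 1118 rose by the same rule, and against all genes and repeats, of which 36.2% rose. The share was nearer to that of the members in 2 sets, 90.9% of the 121 tested L1 rows outside the members and 94.6% of 37 SINE rows. It was 75.9% of 29 LINE rows outside L1, 79.8% of 198 DNA transposon rows and 74.1% of 529 LTR rows. Both genistein libraries lay above both untreated libraries in 94 of the 96 rows, as in 83.8% of all repeats. The median log2 fold change of the tested members was 0.82, with an interquartile range of 0.69 to 0.91. The median was 0.69 over all repeats, 0.67 over the repeats that are not members and -0.03 over all genes. Among related repeats it was 0.74 over the 121 tested L1 rows outside the members, 0.78 over 29 LINE rows outside L1, 0.72 over 198 DNA transposon rows, 0.65 over 529 LTR rows and 0.56 over 37 SINE rows. The 40 tested tRNA rows had a median of -0.34. DNA transposons have no mobile copies in the mouse, and in bulk RNA of this kind reads of whole L1 transcripts and reads of L1 copies inside other transcripts cannot be told apart. The p-values come from edgeR with Benjamini-Hochberg adjustment over all 17358 rows tested.

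**Figure D1:**
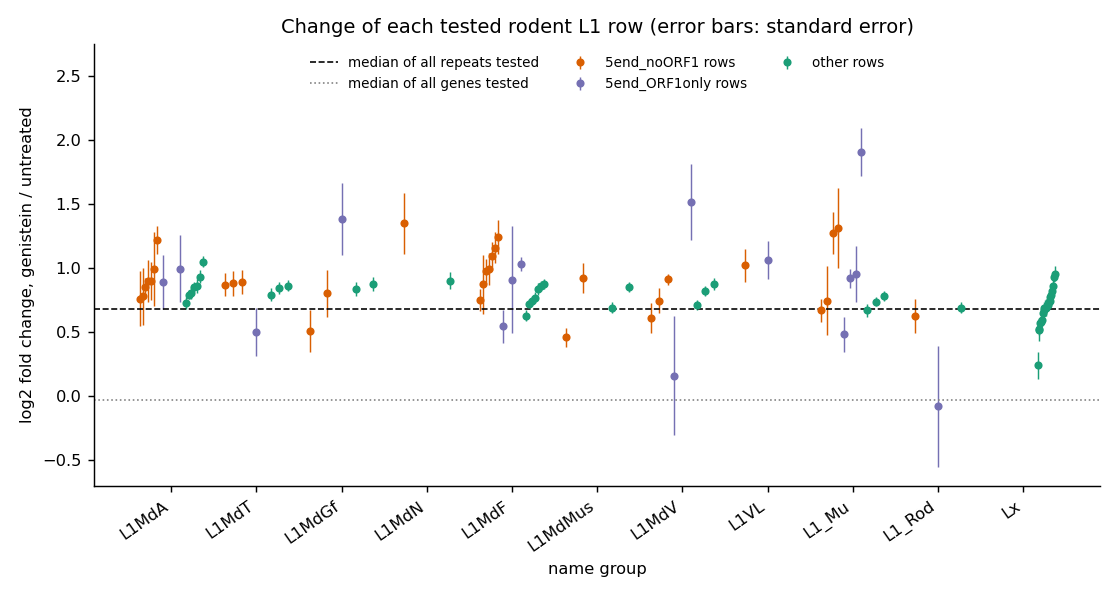
Log2 fold change of each of the 96 tested rodent L1 rows (genistein over untreated, y axis) by name group (x axis) and kind of row (colour), with bars of 1 standard error. The dashed line is the median of all repeats at 0.69 and the dotted line the median of all genes at -0.03. The body rows lie between 0.24 and 1.05, and the wider bars belong to 5′ rows with few counts.

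The kinds of row differed little in their centre and much in their spread. All 31 rows of the 5′ end without ORF1 rose, with a median log2 fold change of 0.89 and a range of 0.46 to 1.35. All 50 body rows rose too, with a median of 0.77 and a range of 0.24 to 1.05. Of the 28 rows of ORF1 alone only 15 had enough counts to test, and 12 of these rose. The other 13 held between 0 and 6 counts in each library and 3 of them held none in any. Summed over these 13 rows the counts were 8 and 17 in untreated and 18 and 15 in genistein libraries, and a difference was not detectable at this depth. The 3 tested rows that did not pass were also ORF1 rows, L1MdFanc_I_5end_ORF1only with a log2 fold change of 0.91 ± 0.42 (SE, n = 2 per group, adjusted p = 0.0609 by edgeR), L1MdV_III_5end_ORF1only with 0.16 ± 0.46 and L1_Rod_5end_ORF1only with -0.08 ± 0.47. These 3 rows were also the tested members that did not reach the count minimum in both untreated libraries.

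In its methods the study also asked for a mean normalised count above 100 and a log2 fold change beyond 1 in either direction. These thresholds were met by 8 of the 96 members, all higher, beside 3.67% of all repeats. The 8 rows were 5 rows of the 5′ end without ORF1, 2 ORF1 rows and 1 body row. L1MdF_V_5end_noORF1 changed most. Its normalised counts were 95.9 and 93.2 in untreated and 246 and 202 in genistein libraries, a log2 fold change of 1.25 ± 0.13 (SE, n = 2 per group, adjusted p = 3.27e-07 by edgeR). L1MdA_II_5end_noORF1 had normalised counts of 144 and 145 against 362 and 309, a log2 fold change of 1.22 ± 0.11 (adjusted p = 4.02e-08). In both rows the untreated libraries lay close together and the genistein libraries lay well above them. L1MdF_III_5end_noORF1 had normalised counts of 88.9 and 96.3 against 204 and 210, a log2 fold change of 1.16 ± 0.12 (adjusted p = 3.27e-07). L1MdF_IV_5end_noORF1 had 198 and 152 against 385 and 363, a log2 fold change of 1.09 ± 0.11 (adjusted p = 1.63e-07). The remaining rows past these thresholds were L1MdFanc_II_5end_ORF1only, L1VL1_5end_ORF1only, L1VL1_5end_noORF1 and the body row L1MdA_II. Over all 8 rows the log2 fold changes were 1.02 to 1.25, close to the threshold of 1, and the count ran from 6 without genistein replicate 1 to 13 without untreated replicate 2 or genistein replicate 2.

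The A family, whose 5′ untranslated region is made of A monomers, rose in every kind of row. The 7 body rows L1MdA_I to L1MdA_VII had log2 fold changes of 0.93, 1.05, 0.79, 0.73, 0.86, 0.86 and 0.81 in that order. The most counted of them, L1MdA_III, had normalised counts of 3009 and 2917 in untreated and 5141 and 5130 in genistein libraries, a log2 fold change of 0.79 ± 0.03 (SE, n = 2 per group, adjusted p = 4.04e-12 by edgeR). L1MdA_II had 1227 and 1349 against 2694 and 2640, a log2 fold change of 1.05 ± 0.05 (adjusted p = 6.06e-12). The body row and the 5′ row without ORF1 of L1MdA_II were thus each the highest of their kind within the family. The most counted 5′ row without ORF1, L1MdA_I_5end_noORF1, had normalised counts of 338 and 375 against 645 and 640, a log2 fold change of 0.85 ± 0.07 (adjusted p = 1.80e-08). The most counted ORF1 row, L1MdA_II_5end_ORF1only, had 34.0 and 51.9 against 85.3 and 72.9, a log2 fold change of 0.89 ± 0.21 (adjusted p = 0.00116). Only 2 of the 6 ORF1 rows of this family could be tested. The other one, L1MdA_I_5end_ORF1only, had the larger log2 fold change, 1.00 ± 0.26 (adjusted p = 0.003). Summed over the family, normalised counts of body rows were 12315 and 13063 against 23145 and 22433, those of 5′ rows without ORF1 were 737 and 811 against 1509 and 1440, and those of ORF1 rows were 60.9 and 93.2 against 138 and 157.

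The rows of the Tf family carry names that start with L1MdTf, and its body rows and 5′ rows without ORF1 moved within a narrow range. The 3 body rows L1MdTf_I, L1MdTf_II and L1MdTf_III had log2 fold changes of 0.84, 0.79 and 0.86, and their 3 rows of the 5′ end without ORF1 had 0.88, 0.87 and 0.89. L1MdTf_III, the most counted body row, had normalised counts of 1375 and 1486 in untreated and 2593 and 2614 in genistein libraries (0.86 ± 0.04, SE, n = 2 per group, adjusted p = 3.27e-11 by edgeR). L1MdTf_II_5end_noORF1 had 202 and 224 against 388 and 391 (log2 fold change 0.87 ± 0.09, adjusted p = 2.43e-07). The groups did not overlap in either row. The 1 ORF1 row tested, L1MdTf_I_5end_ORF1only, had 52.9 and 48.7 against 78.8 and 64.8, a log2 fold change of 0.50 ± 0.19 (adjusted p = 0.0241). That call was the least stable of the named rows, since the adjusted p was 0.236 without genistein replicate 1, 0.0741 without untreated replicate 2 and 0.204 in DESeq2.

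The Gf family was the smallest of the 4 name groups, with 2 body rows. L1MdGf_II had normalised counts of 883 and 990 in untreated and 1737 and 1691 in genistein libraries, a log2 fold change of 0.87 ± 0.06 (SE, n = 2 per group, adjusted p = 5.45e-10 by edgeR), and L1MdGf_I a log2 fold change of 0.84. Its 5′ rows had few counts. L1MdGf_II_5end_noORF1 had 66.9 and 69.9 against 142 and 96.2, a log2 fold change of 0.80 ± 0.18 (adjusted p = 9.75e-04). In L1MdGf_I_5end_noORF1 the log2 fold change was 0.51 ± 0.17 (adjusted p = 0.0117). L1MdGf_II_5end_ORF1only had 14.0 and 27.5 against 60.0 and 47.6, a log2 fold change of 1.39 ± 0.28 (adjusted p = 3.28e-04), and this value ran from 0.96 without untreated replicate 1 to 1.94 without untreated replicate 2. The genistein libraries were higher in each row printed with its counts, and they lay wide apart in L1MdGf_II_5end_noORF1, as the untreated libraries did in L1MdGf_II_5end_ORF1only.

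The F family was counted here with the L1MdFanc rows, whose names also start with L1MdF, and every body row and 5′ row without ORF1 of this name group rose. The most counted body row, L1MdF_V, had normalised counts of 6620 and 6664 in untreated and 11119 and 11522 in genistein libraries, a log2 fold change of 0.77 ± 0.04 (SE, n = 2 per group, adjusted p = 8.30e-11 by edgeR). The 7 body rows ranged from 0.63 in L1MdFanc_I to 0.88 in L1MdF_I. The 7 rows of the 5′ end without ORF1 ranged from 0.75 in L1MdFanc_I_5end_noORF1, with normalised counts of 246 and 283 against 451 and 436, to 1.25 in L1MdF_V_5end_noORF1. L1MdFanc_II_5end_ORF1only held most of the ORF1 counts of the family, 653 and 693 against 1373 and 1379, and its log2 fold change was 1.03 ± 0.05 (adjusted p = 6.27e-11). It was the best counted ORF1 row of all members. The other F ORF1 row that rose, L1MdF_IV_5end_ORF1only, had 101 and 108 against 146 and 159, a log2 fold change of 0.55 ± 0.13 (adjusted p = 0.00136), below the 0.86 of its body row L1MdF_IV.

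**Figure D2:**
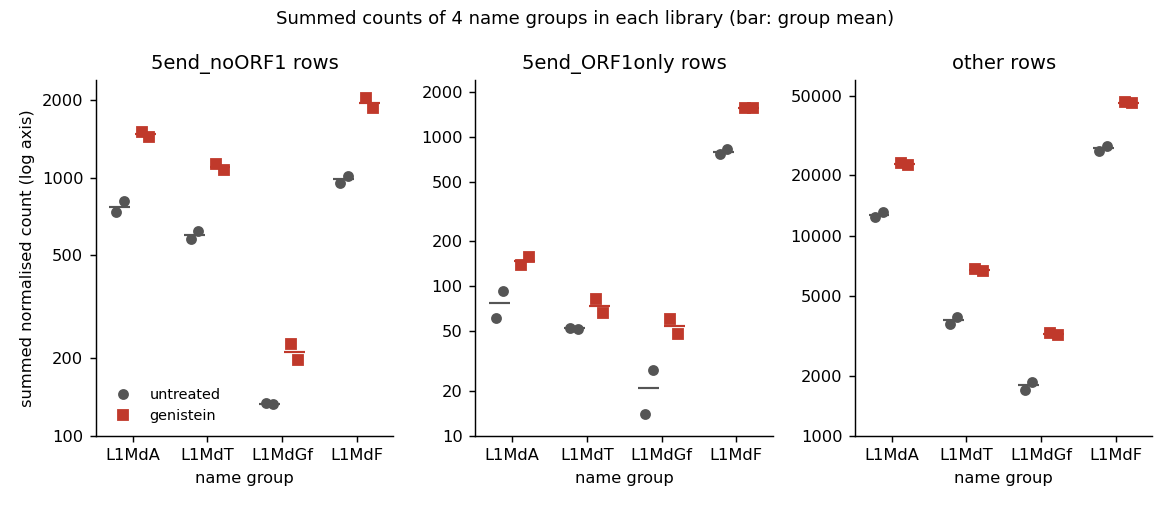
Summed normalised counts (y axis, logarithmic) of the L1MdA, L1MdT, L1MdGf and L1MdF names (x axis) in each library, for the 3 kinds of row in separate panels. Each point is 1 library and each bar the mean of the 2 libraries of a group. The genistein libraries lie above the untreated libraries in every panel and name group, from 14.0 and 27.5 against 60.0 and 47.6 for the Gf ORF1 rows to 26438 and 27991 against 46529 and 45653 for the F body rows. Heights of different name groups are not comparable, because the lengths of the rows were not used.

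The counts of 5′ rows were next set against the counts of body rows of the same name group in the same library, a ratio that does not depend on how libraries are scaled. In the F family the 5′ rows came to 6.52% and 6.56% of the body counts in untreated and 7.71% and 7.49% in genistein libraries, a log2 difference of 0.22 with an SD between replicates of 0.021 (n = 2 per group). The 2 groups lay well apart, and the difference was 0.20 to 0.24 when any 1 library was left out and 0.20 without the L1MdFanc rows. Without those rows the ORF1 sum rose by 0.54 and the body sum by 0.81 on the log2 scale, against 0.97 and 0.76 with them. The ORF1 part of the F difference thus depended on the L1MdFanc rows. In the A family the values were 6.48% and 6.92% against 7.11% and 7.12%, a log2 difference of 0.09 with an SD of 0.047. The groups did not overlap, but the difference ran from 0.04 to 0.13 as 1 library was left out. In the Tf family the values were 17.3% and 17.2% against 17.8% and 17.1% (log2 difference 0.02, SD 0.027), and in the Gf family 8.69% and 8.57% against 8.78% and 7.63% (log2 difference -0.08, SD 0.10). The groups overlapped in both. With the rows without ORF1 alone they did not, the log2 difference then being 0.04 for Tf and -0.19 for Gf. With the ORF1 rows alone, which held few counts, the groups did not overlap either and the differences had the opposite sign. They were -0.35 (SD 0.155) for Tf and 0.59 (SD 0.45) for Gf, so the joint values combine parts that moved apart. The smallest two-sided p of an exact permutation test of 2 against 2 libraries is 0.333, so that test cannot pass a threshold of 0.05 here, and the ratios are given as values with their SD.

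**Figure D3:**
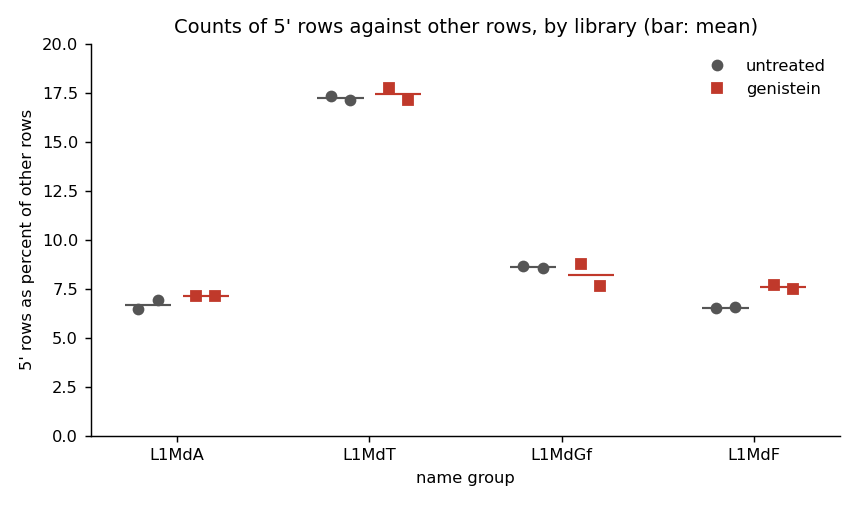
Counts of the 5′ rows, with and without ORF1 together, as a percentage of the counts of the body rows (y axis, from 0) in each library for 4 name groups (x axis). Points are libraries and bars the means of 2 libraries. The F family moves from 6.52% and 6.56% to 7.71% and 7.49%, while the Tf and Gf families overlap between groups.

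The subfamilies were also compared row by row. Of the 29 subfamilies that had both a body row and a row of the 5′ end without ORF1, the 5′ row had the larger log2 fold change in 19, with a median difference of 0.04. In the F family it was larger in 7 of 7 subfamilies, by 0.04 to 0.48. In the A family it was larger in 4 of 7, in the Tf family in 3 of 3 by at most 0.08, and in the Gf family in 0 of 2. The largest fall behind the body row was in L1MdMus_II, where the log2 fold change of L1MdMus_II_5end_noORF1 was 0.46 ± 0.07 (SE, n = 2 per group) and the body row 0.86 ± 0.04. For the ORF1 rows the difference from the body row ranged from -0.77 to 1.24 over 13 subfamilies, and it was above 0 in 7.

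Outside the L1Md names the 5′ rows of L1_Mur1 had larger changes than its body row. This subfamily is named here after its values were seen, since its 5′ rows were below the mean normalised count of 100 that the other choices used. L1_Mur1_5end_ORF1only had normalised counts of 31.0 and 44.5 in untreated and 153 and 129 in genistein libraries, a log2 fold change of 1.91 ± 0.19 (SE, n = 2 per group, adjusted p = 1.13e-07 by edgeR), the largest of all 96 tested members. L1_Mur1_5end_noORF1 had 60.9 and 46.6 against 137 and 125, a log2 fold change of 1.28 ± 0.16 (adjusted p = 3.07e-06). The body row L1_Mur1 had 994 and 1087 against 1620 and 1689, a log2 fold change of 0.67 ± 0.05 (adjusted p = 8.73e-09). The groups did not overlap in any of the 3 rows, although the untreated libraries of the 5′ rows lay further apart for their level than those of the body row. The other L1_Mur names, also printed after their values were seen, were mixed. In L1_Mur2 the log2 fold changes were 1.31 without ORF1 and 0.48 for ORF1, against 0.78 in the body row. In L1_Mur3 they were 0.67 and 0.92 against 0.74. A summed row does not say how many copies of a subfamily gave these reads.

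Among the other names outside L1Md, every tested row but L1_Rod_5end_ORF1only rose. L1_Mur3, the most counted L1_Mu row, had normalised counts of 4606 and 4758 in untreated and 7792 and 7838 in genistein libraries, a log2 fold change of 0.74 ± 0.03 (SE, n = 2 per group, adjusted p = 7.04e-12 by edgeR). L1_Rod had 2634 and 2905 against 4552 and 4390, a log2 fold change of 0.69 ± 0.04 (adjusted p = 3.85e-10). L1VL1 has no body row in the table. L1VL1_5end_noORF1 had 104 and 132 against 250 and 228, a log2 fold change of 1.02 ± 0.13 (adjusted p = 1.94e-06), and L1VL1_5end_ORF1only had 72.9 and 82.6 against 176 and 148, a log2 fold change of 1.06 ± 0.15 (adjusted p = 6.45e-06). No row had a name that starts with L1_Mm.

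The old Lx families, which have no separate 5′ rows, rose about as much as repeats in general. All 21 Lx rows passed the test, with a median log2 fold change of 0.69, equal to that of all repeats to 2 decimals. Lx9, the most counted, had normalised counts of 9695 and 10534 in untreated and 16098 and 15689 in genistein libraries, a log2 fold change of 0.65 ± 0.05 (SE, n = 2 per group, adjusted p = 6.57e-09 by edgeR). Within the Lx names the values ran from Lx2A, with 204 and 203 against 258 and 223 and a log2 fold change of 0.24 ± 0.10 (adjusted p = 0.0488), to Lx3C, with 754 and 859 against 1618 and 1510 and a log2 fold change of 0.96 ± 0.06 (adjusted p = 6.76e-10). These 2 rows were picked as the ends of the range of 21 rows, and the difference between them was not tested. Of the other Lx3 names, Lx3_Mus and Lx3A had log2 fold changes of 0.93 and 0.86 and Lx3B one of 0.69, at the median of the Lx rows.

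Body counts of the younger families were then divided by the summed Lx body counts of the same library. The A body rows came to 22.8% and 22.4% of the Lx counts in untreated and 25.1% and 25.1% in genistein libraries, a log2 difference of 0.15 with an SD between replicates of 0.016 (n = 2 per group). The Tf rows came to 6.74% and 6.72% against 7.41% and 7.45% (log2 difference 0.14, SD 0.0046), and the Gf rows to 3.16% and 3.19% against 3.54% and 3.57% (log2 difference 0.16, SD 0.011). For the F rows the values were 49.0% and 47.9% against 50.5% and 51.0%, a log2 difference of 0.07 with an SD of 0.018. The groups did not overlap in any of the 4 ratios. Among the body sums of the A, Tf and Gf names, the A to Tf ratio changed by 0.01 and the A to Gf ratio by -0.01 on the log2 scale. The groups overlapped in both ratios. The Tf to Gf ratio changed by -0.02 (SD 0.011) with groups that did not overlap, whereas the A to F ratio changed by 0.08 (46.6% and 46.7% against 49.7% and 49.1%). These sums take in truncated copies, so they are not a reading of mobile elements. The differences between name groups are small beside the rise itself. The body sums rose by 0.84 for A, 0.84 for Tf, 0.86 for Gf and 0.76 for F on the log2 scale. The Lx rows had a median of 0.69. Body rows of the remaining L1Md names, which were not set against Lx, reached similar values. They were 0.90 in L1MdN_I, 0.69 and 0.86 in L1MdMus_I and L1MdMus_II, and 0.71, 0.82 and 0.87 in L1MdV_I to L1MdV_III. These ratios too are given as values with their SD, with no test.

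To ask which L1 rows moved apart from the repeats, the repeat rows were also fitted alone, so that the scale was set by repeats and not by genes. On this scale 27 of the 96 members were higher and 5 lower, where 7.89% of all 1103 repeats tested were higher and 14.7% lower. The median log2 fold change of members was then 0.12, that of the repeats -0.01. Of the body rows 19 of 50 were higher and 4 lower. The higher body rows included 5 of 7 A rows, 2 of 3 Tf rows, 2 of 2 Gf rows and 3 of 7 F rows. They also included 2 of 3 L1MdV rows, 1 of 1 L1MdN row and 1 of 2 L1MdMus rows, so these calls were not particular to the 4 name groups. No body row of these name groups was lower. Of the 3 L1_Mu body rows 0 were higher, and L1_Rod did not pass. L1MdA_II had the largest value of the body rows, 0.35 ± 0.03 (SE, n = 2 per group, adjusted p = 4.57e-05 by edgeR). Of the 21 Lx rows 3 were higher, Lx3C, Lx3_Mus and Lx3A, and 4 were lower, Lx, Lx2A, Lx5b and Lx6. Of the 31 rows of the 5′ end without ORF1, 5 were higher and 1, L1MdMus_II_5end_noORF1, was lower, and of the 15 ORF1 rows 3 were higher. L1_Mur1_5end_ORF1only kept the largest value, 1.21 ± 0.18 (adjusted p = 7.95e-04). No member passed the study's thresholds on this scale. The calls also depend on depth, so their shares are not like for like between kinds of row. The body row L1MdA_VII, with a mean normalised count of 2420, was called higher at 0.11 ± 0.03 (adjusted p = 0.0429 by edgeR). L1MdGf_II_5end_ORF1only, with a mean of 35.4, was not called at 0.69 ± 0.29 (adjusted p = 0.118).

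**Figure D4:**
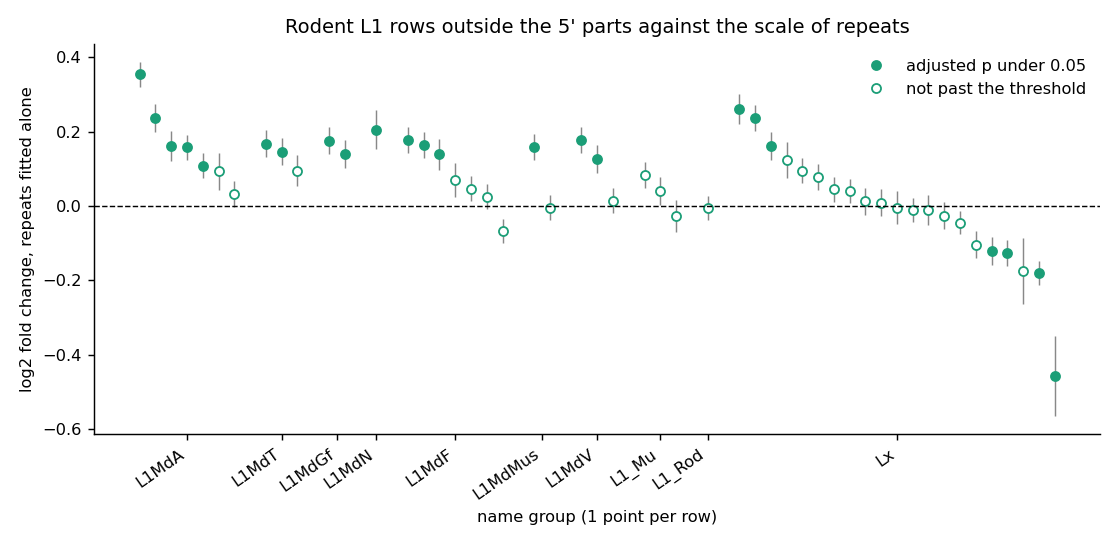
Log2 fold change (y axis) of the 50 body rows with repeats fitted alone, 1 point per row, ordered by value within each name group (x axis), with bars of 1 standard error. Filled points passed an adjusted p under 0.05. The A, Tf, Gf, L1MdN and L1MdV rows all lie above 0, while the Lx rows run from 0.26 in Lx3C to -0.46 in Lx2A.

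Genes known to restrain or assist L1 were read in the same libraries. They act at several layers. DNA methylation and histone H3 lysine 9 methylation, which the HUSH complex helps to place, silence L1 copies in chromatin, and RNA helicases, nucleases and deaminases act on L1 RNA and on its DNA copy. Of 40 such genes 38 could be tested, of which 10 rose and 19 fell, where 33.5% of all genes rose and 38.2% fell. Their median log2 fold change was -0.18, against -0.03 for all genes. Sox2 and L1td1 had 0 or 1 count per library.

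Most genes of H3 lysine 9 methylation were lower. Of 6 genes 4 fell and 0 rose. Trim28, the corepressor that brings histone methyltransferases to repeats, had normalised counts of 12023 and 11626 in untreated and 6178 and 6024 in genistein libraries, a log2 fold change of -0.95 ± 0.04 (SE, n = 2 per group, adjusted p = 6.90e-12 by edgeR). Suv39h2, a methyltransferase of that lysine, had 906 and 937 against 444 and 470, a log2 fold change of -1.01 ± 0.06 (adjusted p = 3.23e-10). In both genes the groups were far apart. Setdb1, the methyltransferase that works with Trim28, had 2797 and 2822 against 2694 and 2641 and did not pass the test (log2 fold change -0.07 ± 0.04, adjusted p = 0.0718). Of 5 genes of HUSH and its partners 3 fell, Mphosph8, Fam208a and Pphln1, by 0.38, 0.31 and 0.31 on the log2 scale. Atf7ip, the partner that stabilises Setdb1, rose from 1480 and 1605 to 3080 and 2940, a log2 fold change of 0.97 ± 0.04 (adjusted p = 1.15e-11).

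Genes of DNA methylation moved in both directions, 5 higher and 4 lower of 9. Tet1, which oxidises methylcytosine, had normalised counts of 22.0 and 24.4 in untreated and 97.5 and 109 in genistein libraries, a log2 fold change of 2.15 ± 0.20 (SE, n = 2 per group, adjusted p = 6.43e-08 by edgeR). Dnmt3b, a de novo methyltransferase, had 241 and 256 against 118 and 105, a log2 fold change of -1.15 ± 0.12 (adjusted p = 1.60e-07). Uhrf1, which guides maintenance methylation, had 8828 and 8229 against 5225 and 5361, a log2 fold change of -0.69 ± 0.04 (adjusted p = 1.89e-10). Thus the maintenance genes Dnmt1, Uhrf1 and Hells and the de novo gene Dnmt3b were lower, and Tet1, Tet2, Tet3 and Dnmt3a were among those that rose.

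Among 13 genes that act on L1 RNA or complementary DNA, 2 rose and 6 fell. Upf1, an RNA helicase of nonsense-mediated decay, had normalised counts of 4080 and 4021 in untreated and 2352 and 2273 in genistein libraries, a log2 fold change of -0.81 ± 0.04 (SE, n = 2 per group, adjusted p = 6.60e-12 by edgeR). Mov10, a helicase that restrains L1, had 1281 and 1273 against 1280 and 1256 (adjusted p = 0.866). Of 5 tested genes of transcription or RNA partners 2 rose, Runx1 and Pabpc1, and 2 fell, Yy1 and Sox11. Whether any of these genes had a part in the L1 values was not tested.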

How the data were processed

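Total RNA of 4 MEF libraries (2 untreated, 2 genistein) was depleted of ribosomal RNA and sequenced in paired ends. After trimming (Trim Galore), the authors used STAR on mm10 (GRCm38 in the submitters' notes) with multiple alignments allowed. Raw counts per gene and per repeat subfamily, made by the authors with TEtranscripts, were deposited. This counter takes gene exons before repeats, and reads that fit near-identical L1 copies can fall to several rows, so rows of related subfamilies are uncertain and not independent. The strand option was not given in the sources used here.

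Genes and repeats were fitted together in edgeR 4.0.16 (R 4.3.3): filterByExpr by group with a count minimum of 10 (17358 of 49382 rows), TMM scaling, the quasi-likelihood test and Benjamini-Hochberg adjustment at 0.05. Normalised counts are counts over effective library size, times the mean effective size. SE is the log2 fold change over the root of F. Sums and ratios are of all rows of a name group, untested ones included. The 1 unnamed entry (0.00208% to 0.00314% of counts) was left out. Alternatives were DESeq2 1.42.0, other scalings and filters, a fit blocked on replicate number, and each library left out in turn. The fit was also run on simulated counts in which few features changed. These data hold far broader shifts, and that run does not bear on them.

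Members and gene lists were chosen with earlier results of these data known. Named rows were the most counted row of each kind in the 4 name groups and of each other name, up to 5 rows per direction with the largest change past adjusted p 0.05 and a mean over 100, and up to 3 higher and 5 lower control genes, of which some are not reported here. Rows outside this rule are named only within a complete list, as the ends of a range, as members of a count or where said in the text. Gene symbols came from GENCODE.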

Additional observations from a re-analysis of the deposited data

How the results depend on the processing

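The rise of the L1 rows kept its direction under the alternatives that scale genes and repeats together, and 86 (DESeq2) to 94 (library totals) of the members were higher. With 1 library left out 88 to 91 were higher. With repeats fitted alone 27 were higher and 5 lower, since this scale is set by the repeats themselves. The count past the study's thresholds was 13 with library totals, 14 with a mean over 10, 2 with a mean over 1000, 0 with repeats alone, and 6 to 13 with 1 library left out. Replicate numbers did not pair the samples (correlation of deviations -0.0341); with the replicate block 93 members were higher and 8 past the study's thresholds, and no row named by the rule changed its call.

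With repeats fitted alone the medians were 0.19 for 5′ rows without ORF1, 0.22 for ORF1 rows and 0.074 for body rows. The sums, in the order 5′ without ORF1, ORF1 and body, were then 0.23, 0.25 and 0.15 for A, 0.18, -0.21 and 0.14 for Tf, -0.035, 0.69 and 0.16 for Gf, and 0.29, 0.27 and 0.063 for F. The rows L1MdTf_I_5end_ORF1only (-0.20), L1_Rod (-0.0054) and Lx9 (-0.045) changed sign. With library totals the body median was 0.84, the body sums 0.91 for A, 0.90 for Tf, 0.92 for Gf and 0.83 for F, the Tf 5′ sum without ORF1 0.95 and the F ORF1 sum 1.04. With factors from genes alone the F body sum was 0.80.

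With 1 library left out the ORF1 sums ran from 0.66 to 1.27 for A, 0.33 to 0.64 for Tf, 0.96 to 1.94 for Gf and 0.92 to 1.02 for F, and the body sums from 0.78 to 0.89 for Tf, 0.79 to 0.92 for Gf and 0.71 to 0.80 for F. The 5′ to body ratio ran from -0.00997 to 0.042 for Tf and from -0.18 to 0.025 for Gf. Other choices were made after seeing the data. Without the L1MdFanc rows the F sums were 1.08, 0.54 and 0.81, and the F to Lx ratio was 0.11. With 5′ rows without ORF1 alone the ratio to body was 0.044 for Tf and -0.19 for Gf. The causes of these shifts were not tested beyond what each alternative changes. Rows with few counts, above all the ORF1 rows, are limited by depth.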
